A study of Mus musculus with 12 samples.

Results

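The transcripts described here are those of 9 regulators of transcription elongation and of the release of paused RNA polymerase II, Ppp1r10, Wdr82, Hexim1, Larp7, Cdk9, Ccnt1, Ccnt2, Cdk12 and Cdk13, out of 34513 genes in the deposited count table. They were taken by gene symbol. The set was selected on values of these same counts, the level without drug and the change with the CXCR1/CXCR2 antagonist SX-682 in each line. Their levels and changes are therefore given as a description, with no p-value for a member. Counts of members past a test threshold are given beside the share of all genes tested, and are not evidence about the set. All 9 passed the filter on low counts, as did 18338 genes in all.

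RNA was sequenced from cultures of 3 mouse melanocytic lines. Melan-A (MelanA in the labels) is a non-tumorigenic melanocyte line, and B16F0 and B16F10 are melanoma lines of common origin, of which B16F10 was selected for metastasis. Each line was grown with no treatment or with SX-682, which gave 6 groups of 2 libraries. Cxcr2 had 34 to 79 reads a library in Melan-A and at most 1 in any B16 library, and Cxcr1 had at most 21. Whether the changes with SX-682 run through these receptors was not tested. The dose and time of SX-682 and whether the 2 libraries of a group came from separate cultures are not given in the sources used here, so p-values measure only the spread between these libraries, which may be technical.

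Shortly after initiation, RNA polymerase II pauses near the promoter, held by NELF and DSIF. Release needs P-TEFb, a kinase made of CDK9 and cyclin T1 or T2 that phosphorylates DSIF, NELF and the C-terminal domain (CTD) of the polymerase. Much of the P-TEFb in a cell is kept inactive in the 7SK ribonucleoprotein (RNP), where HEXIM1 or HEXIM2 inhibits the kinase and LARP7 and MEPCE hold and cap the 7SK RNA. CDK12 and CDK13, with cyclin K, phosphorylate the CTD further into genes. PNUTS, the product of Ppp1r10, brings the phosphatase PP1 together with WDR82 and TOX4 to the polymerase, where it removes phosphate from the CTD and from DSIF and slows the polymerase before termination.

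Reads counted on genes came to between 48876982 and 85322092 per library, and the 9 regulators had between 574 (Ppp1r10 in a B16F0 library with SX-682) and 12758 reads (Hexim1 in a Melan-A control) each. The chi-square per gene between the 2 replicates of a group was 2.87 to 5.25, above that of pure counting noise, so no library was merged with another. Levels are given as CPM (counts scaled to a fixed library size, with TMM factors), or as RPKM (the same per kilobase of gene length) where genes are compared, and both are relative to the rest of the RNA in a library. Lines were checked against 8 melanocyte markers. In Melan-A the pigment enzyme Tyr was at 0.253 to 0.892 CPM. Sox10 went the other way, with 655 to 753 CPM in Melan-A against 351 to 589 CPM in the B16 lines. The summed level of the 8 was 1351 to 1382 CPM in Melan-A, 16210 to 19370 CPM in B16F0 and 15250 to 25150 CPM in B16F10. With SX-682 that sum was lower in both B16 lines (16210 to 16420 against 19270 to 19370 CPM in B16F0, and 15250 to 15500 against 25120 to 25150 CPM in B16F10), and the share of reads on the mitochondrial genome was higher in every line (1.15% against 0.957% to 0.968% in Melan-A, 0.847% to 0.863% against 0.756% to 0.779% in B16F0, and 1.24% against 0.989% to 1.02% in B16F10). Of 3 leukocyte markers, Cd68 was at 43.9 and 45.3 CPM in Melan-A with SX-682 against 15.9 and 16.1 CPM without, while Ptprc stayed at or under 0.255 CPM in every library. Keratinocyte markers summed to at most 3.39 CPM and endothelial markers to at most 2.24 CPM. Fibroblast markers summed to 52.9 to 60.9 CPM in Melan-A, 15.9 to 16.7 CPM in B16F0 and 8.42 to 9.72 CPM in B16F10. The part of these shifts in the values below was not tested, and in bulk RNA fewer cells of a kind cannot be told apart from less RNA per cell.

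Ppp1r10, Wdr82, Hexim1 and Larp7 were lower with SX-682 in all 3 lines, by unlike amounts. The DNA ahead of a start of each is shown because of this shared direction. RefSeq windows of 300 bases around the start (GRCm38.p6) were found for all 9 genes, 10 windows in all, with a second window for Ppp1r10. The stretches are printed 5′ to 3′ on the gene's strand and end 1 base before a start in GENCODE M21 (for Ppp1r10, the start of the protein-coding transcript Ppp1r10-206, since the window lies inside the gene, in bases that are exonic in a retained-intron transcript). Capitals mark GGGCGG (the GC box bound by SP1), TGACGTCA (the full cAMP response element), CCAAT and TATAAA, on either strand.
Ppp1r10, chr17:35916946-35916997, plus strand: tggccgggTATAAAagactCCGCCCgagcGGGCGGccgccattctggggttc
Wdr82, chr9:106170679-106170927, plus strand: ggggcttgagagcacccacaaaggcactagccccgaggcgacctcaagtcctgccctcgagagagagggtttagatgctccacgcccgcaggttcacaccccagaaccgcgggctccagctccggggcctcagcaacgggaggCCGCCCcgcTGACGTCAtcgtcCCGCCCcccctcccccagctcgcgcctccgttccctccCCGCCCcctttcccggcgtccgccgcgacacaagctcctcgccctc
Hexim1, chr11:103116075-103116230, plus strand: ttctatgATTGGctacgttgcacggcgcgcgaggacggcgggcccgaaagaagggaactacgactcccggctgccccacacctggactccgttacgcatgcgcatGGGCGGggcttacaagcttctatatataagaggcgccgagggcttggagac
Larp7, chr3:127553350-127553599, minus strand: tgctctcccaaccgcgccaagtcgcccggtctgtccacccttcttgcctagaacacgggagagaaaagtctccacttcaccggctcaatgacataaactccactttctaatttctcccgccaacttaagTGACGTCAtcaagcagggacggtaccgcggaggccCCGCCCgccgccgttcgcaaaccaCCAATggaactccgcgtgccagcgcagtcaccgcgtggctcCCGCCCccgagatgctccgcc

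GGGCGG occurred in all 10 windows of the 9 genes, against 35.7% of the 32851 mouse windows of that length. TGACGTCA was found in the Wdr82 and Larp7 windows, 97 bases before the start of Wdr82 and 121 bases before that of Larp7, against 1.79% of all windows. The Larp7 window held a further TGACGTCA just past the start, outside the printed stretch. TATAAA was present in 1 window, that of Ppp1r10 shown above (13.6% of all windows), CCAAT in 4 (37.4%) and CCGGAAG, an ETS factor motif, in 3 (8.86%). Only exact strings were searched, so a TATA-like stretch such as tatatataag in the Hexim1 window is not counted. The E-box CACGTG (7.15% of all windows) and TCATGTG, bound by MITF (3.77%), were in none of the 10. The windows of the 9 genes held a median of 29 CpG and 66.0% GC, against 7 CpG and 52.7% GC over all windows, and a match is given as a description of the sequence.

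Among the genes of the phosphatase complex, Ppp1r10 (ENSMUSG00000039220, chr17:35916434-35932283, plus strand) had the lowest fold of the 9 in every line. In Melan-A it was at 78.6 and 79.4 CPM without drug and 24.5 and 24.9 CPM with SX-682. B16F0 cells held 37.9 and 37.5 CPM without drug and 12.1 and 11.9 CPM with it, and B16F10 cells held 54.0 and 55.5 against 16.5 and 17.7 CPM. Every treated library was below every untreated library, also across lines, since the highest treated value (Melan-A) was below the lowest untreated value (B16F0). The log2 fold changes were -1.68 (SE 0.0446) in Melan-A, -1.65 (SE 0.0536) in B16F0 and -1.68 (SE 0.0495) in B16F10, which left 0.313, 0.318 and 0.312 times the untreated level. In comparison, 2.24%, 3.21% and 3.78% of the genes tested had a more negative log2 fold change in the respective lines.

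Wdr82 (chr9:106170928-106191139, plus strand) encodes the WD-repeat partner of PNUTS, which is also a subunit of the SET1 histone methyltransferases. It was at 122 and 118 CPM in Melan-A controls and 85.5 and 87.4 CPM with SX-682, at 108 and 108 against 88.1 and 89.8 CPM in B16F0, and at 149.6 and 147 against 102 and 96.4 CPM in B16F10. The treated and untreated libraries of a line did not overlap. In Melan-A, B16F0 and B16F10, 16.7%, 26.2% and 15.6% of the genes tested had a more negative log2 fold change than Wdr82. Its log2 fold changes of -0.47 (SE 0.032), -0.29 (SE 0.0331) and -0.58 (SE 0.0324) were smaller than those of Ppp1r10, and the ratio of Ppp1r10 to Wdr82 in RPKM went from 0.729 and 0.762 to 0.324 and 0.322 in Melan-A, from 0.394 and 0.390 to 0.154 and 0.150 in B16F0, and from 0.407 and 0.427 to 0.182 and 0.207 in B16F10.

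**Figure D1:**
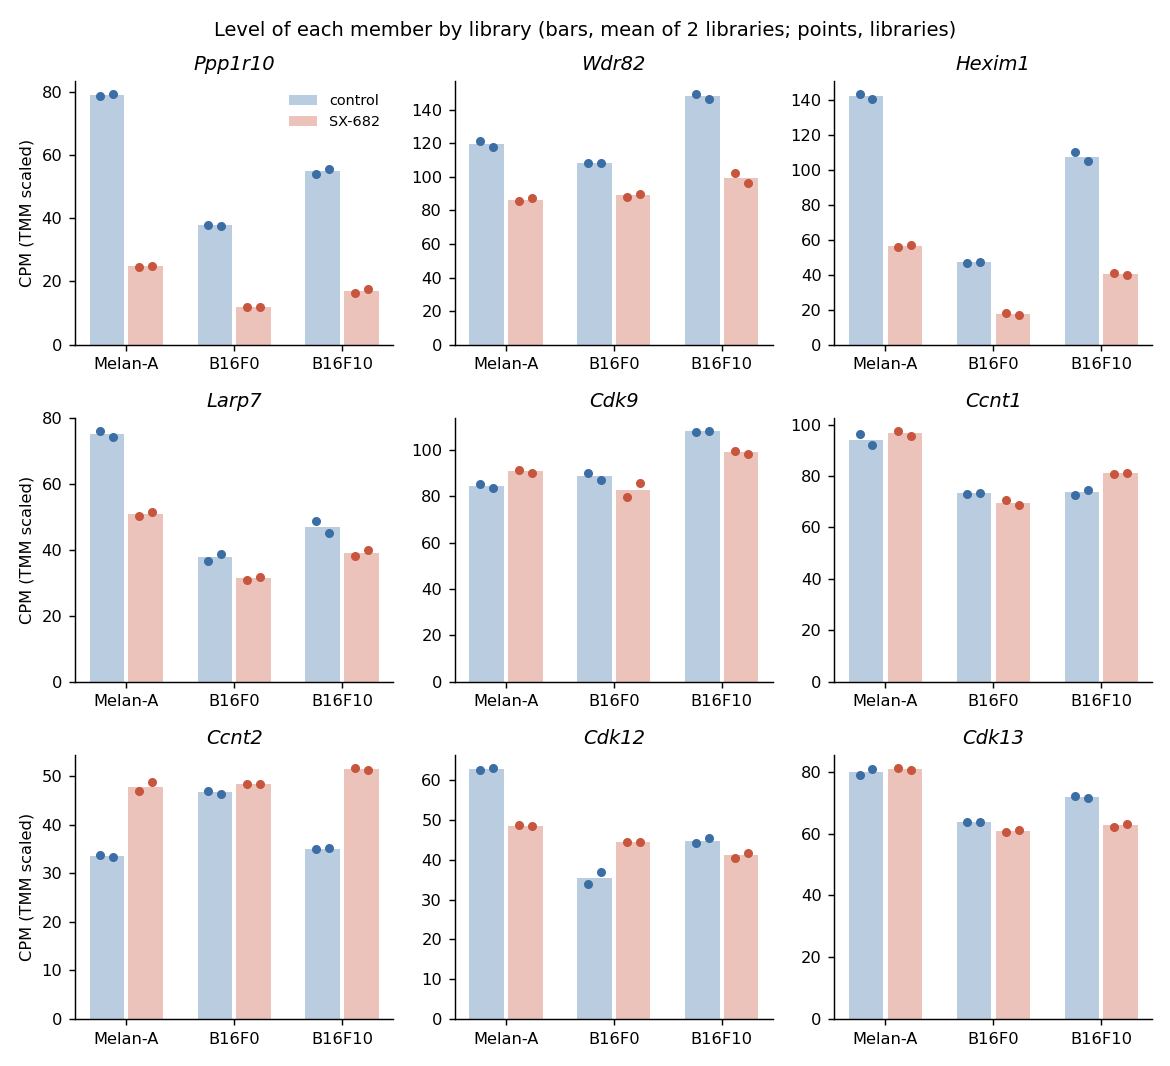
Level of each of the 9 genes in CPM (vertical axis, TMM scaled) in control and SX-682 libraries of Melan-A, B16F0 and B16F10; points are libraries and bars their mean of 2. For Ppp1r10 the treated libraries lie between 11.9 and 24.9 CPM and the untreated ones between 37.5 and 79.4 CPM, while Cdk9 stays between 79.7 and 108 CPM throughout.

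In the 7SK RNP, Hexim1 (ENSMUSG00000048878, chr11:103116231-103119725, plus strand), a gene of 1 exon whose product inhibits P-TEFb, had the next lowest fold of the 9 in every line. Melan-A cells had 144 and 140.4 CPM of Hexim1 without drug and 56.1 and 57.1 CPM with SX-682. The B16F0 values were 46.9 and 47.2 CPM against 17.9 and 17.0 CPM, and those of B16F10 were 110.3 and 105 CPM against 41.0 and 39.9 CPM. Within each line the groups were far apart, but untreated B16F0 was below treated Melan-A. Log2 fold changes were -1.33 (SE 0.0355), -1.43 (SE 0.0454) and -1.41 (SE 0.0382), or 0.399, 0.371 and 0.376 times the untreated level, with 3.50%, 4.08% and 4.79% of the genes tested more negative.

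Larp7 (chr3:127536714-127553349, minus strand), which encodes the protein that binds and stabilizes 7SK RNA, was lower too, by less. Its levels were 76.3 and 74.3 CPM against 50.4 and 51.4 CPM in Melan-A, 36.8 and 38.7 against 30.9 and 31.95 CPM in B16F0, and 48.7 and 45.3 against 38.3 and 40.1 CPM in B16F10. No treated library reached an untreated one of its line. The log2 fold change was -0.56 (SE 0.0421) in Melan-A, -0.27 (SE 0.048) in B16F0 and -0.26 (SE 0.0461) in B16F10. Of the genes tested, 13.5%, 27.4% and 28.9% were more negative in the respective lines.

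In P-TEFb, the values of the kinase gene lay close together. Cdk9 (chr2:32705784-32713076, minus strand) was at 85.2 and 83.7 CPM without drug and 91.4 and 90.3 CPM with it in Melan-A, at 90.2 and 87.2 against 79.7 and 85.9 CPM in B16F0, and at 108 and 108 against 99.8 and 98.6 CPM in B16F10. The treated libraries were thus the higher ones in Melan-A and the lower ones in both B16 lines, with log2 fold changes of 0.11 (SE 0.034), -0.10 (SE 0.0353) and -0.12 (SE 0.0345). In B16F0 the size depended on which library was left out. The log2 fold change was between -0.16 and -0.05 when each library was left out in turn.

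Ccnt1 (chr15:98538689-98570923, minus strand), which encodes cyclin T1, was at 96.3 and 92.0 against 97.6 and 95.7 CPM in Melan-A, where the groups overlapped. In B16F0 it was at 72.9 and 73.6 against 70.8 and 68.6 CPM, and in B16F10 at 72.7 and 74.6 against 80.9 and 81.3 CPM. The B16 lines thus lay on opposite sides of their controls, with log2 fold changes of -0.07 (SE 0.0353) and 0.14 (SE 0.035), and that of Melan-A was 0.04 (SE 0.0329). Ccnt1 shares 695 exonic bases, 7.59% of its own, with the antisense gene 9330020H09Rik, which had 4 to 56 reads a library, and whether the counting used strand is not given in the sources used here.

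Ccnt2 (chr1:127774164-127808061, plus strand), the gene of cyclin T2, was the single member with higher values in the treated libraries of all 3 lines. It went from 33.8 and 33.3 to 47.0 and 48.8 CPM in Melan-A, from 47.0 and 46.4 to 48.4 and 48.4 CPM in B16F0, and from 35.0 and 35.2 to 51.8 and 51.2 CPM in B16F10. The log2 fold changes were 0.51 (SE 0.0412), 0.05 (SE 0.0417) and 0.55 (SE 0.0428), and the B16F0 value is close to its standard error. Treated libraries of the 3 lines came to lie within 47.0 to 51.8 CPM, whereas the untreated ones ran from 33.3 to 47.0 CPM, with B16F0 highest.

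Of the CTD kinases that act further into genes, Cdk12 (chr11:98203059-98278504, plus strand) went both ways. It was at 62.6 and 63.1 CPM in Melan-A controls and 48.7 and 48.4 CPM with SX-682, at 34.0 and 37.0 against 44.4 and 44.5 CPM in B16F0, and at 44.1 and 45.4 against 40.6 and 41.6 CPM in B16F10. Treated libraries were below the untreated ones in Melan-A and B16F10 and above them in B16F0, and the log2 fold changes were -0.37 (SE 0.0415), 0.32 (SE 0.0453) and -0.12 (SE 0.0449). Treated values of the lines, 40.6 to 48.7 CPM, were closer together than untreated ones, 34.0 to 63.1 CPM. Cdk13 (chr13:17710315-17805097, minus strand), whose kinase overlaps with CDK12 in function, was at 79.0 and 80.9 against 81.3 and 80.5 CPM in Melan-A, where the groups overlapped, at 63.7 and 63.9 against 60.6 and 61.0 CPM in B16F0, and at 72.2 and 71.4 against 62.2 and 63.2 CPM in B16F10. Its log2 fold changes were 0.02 (SE 0.0328), -0.07 (SE 0.0352) and -0.20 (SE 0.0349), the B16 lines being lower with the drug.

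**Figure D2:**
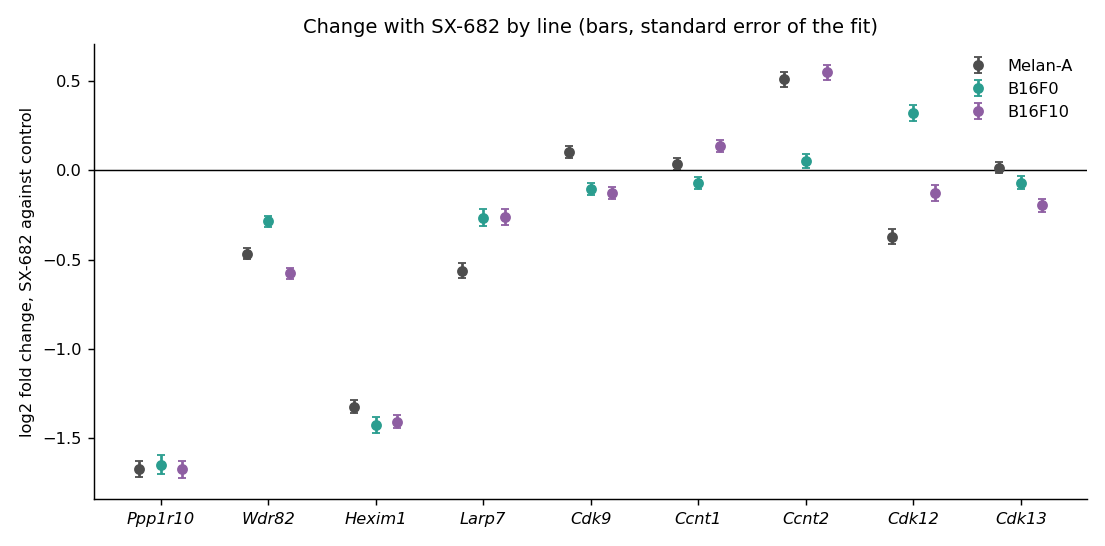
Log2 fold change of each gene with SX-682 against control (vertical axis) in the 3 lines; bars are the standard error of the edgeR fit and the line at 0 marks equal levels. Ppp1r10 lies at -1.65 to -1.68 and Hexim1 at -1.33 to -1.43 in every line, whereas Cdk12 runs from -0.37 in Melan-A to 0.32 in B16F0.

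By edgeR (adjusted p under 0.05), 5 of the 9 were lower and 2 higher in Melan-A, where 24.7% of the genes tested were lower and 23.4% higher. The counts were 5 lower and 1 higher in B16F0, with 25.0% and 25.1% of the genes tested, and 7 lower and 2 higher in B16F10, with 25.3% and 25.5%. In all 3 lines at once 4 were lower and 0 higher, against 11.7% and 11.3% of the genes tested. Because these contrasts chose the members, the counts carry no evidence about the set. The median log2 fold change of the 9 was -0.37, -0.10 and -0.20 in Melan-A, B16F0 and B16F10, and 0 over all genes tested in each line.

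Since the kinase and its inhibitor differed in how far they moved, their proportion was computed within each library from levels per length. Hexim1 was at 2.22 and 2.21 times the RPKM of Cdk9 in Melan-A controls and 0.810 and 0.834 times with SX-682. In B16F0 the ratio was 0.686 and 0.714 against 0.296 and 0.261, and in B16F10 it was 1.35 and 1.27 against 0.542 and 0.534. By RPKM, the inhibitor transcript thus exceeded the kinase transcript in untreated Melan-A and B16F10 and was below it in the remaining groups. The lengths used were unions of all annotated exons, 3495 bases for Hexim1 and 4611 bases for Cdk9. In untreated B16F10 the mean levels were 107.5 CPM for Hexim1 and 108.1 CPM for Cdk9, so the order there depended on the lengths. With Hexim2 added to Hexim1, the ratio was 2.77 in both Melan-A controls and 1.18 and 1.22 with SX-682, 0.876 and 0.926 against 0.442 and 0.425 in B16F0, and 1.55 and 1.48 against 0.711 and 0.721 in B16F10, so that treated Melan-A stayed above 1. These are transcripts, and the amount of protein was not measured here.

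Between the cyclins, Ccnt1 was at 3.83 and 3.72 times the RPKM of Ccnt2 in Melan-A controls and at 2.80 and 2.65 times with SX-682. The ratio was 2.09 and 2.14 against 1.97 and 1.91 in B16F0, and 2.80 and 2.86 against 2.11 and 2.14 in B16F10, lower with the drug in each line. The sum of both cyclins came to 0.717 and 0.703 times Cdk9 against 0.730 and 0.735 in Melan-A, to 0.601 and 0.623 against 0.675 and 0.613 in B16F0, where the groups overlapped, and to 0.461 and 0.468 against 0.602 and 0.609 in B16F10. Cdk12 stood at 0.909 and 0.895 times Cdk13 in Melan-A controls and 0.688 and 0.690 with SX-682, at 0.612 and 0.665 against 0.839 and 0.836 in B16F0, and at 0.702 and 0.730 against 0.748 and 0.756 in B16F10. The order of the lines by this ratio was reversed with the drug, from Melan-A highest to Melan-A lowest.

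**Figure D3:**
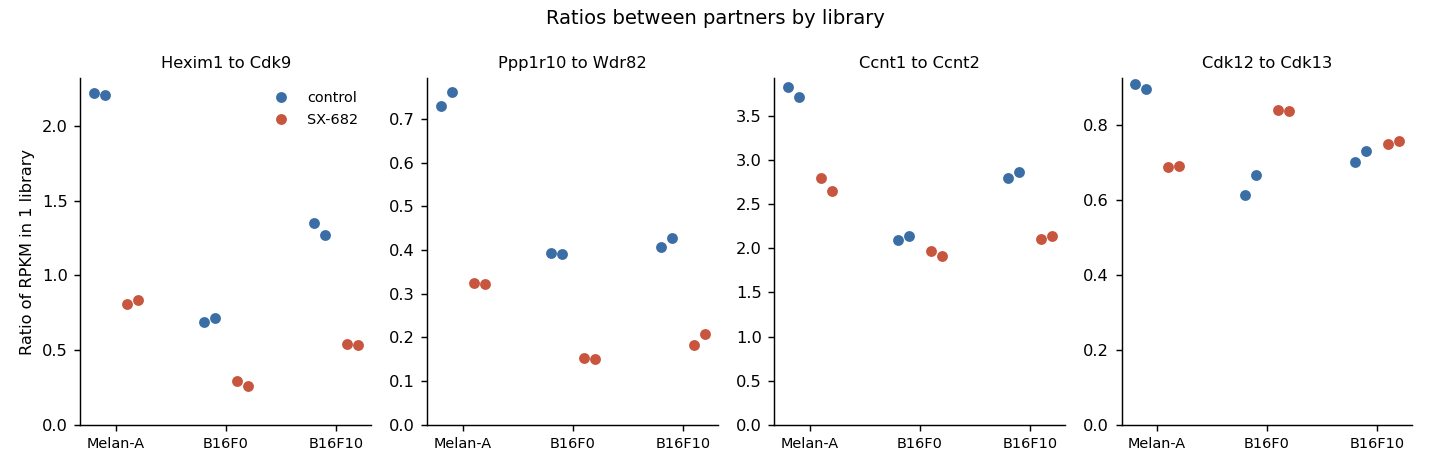
Ratio of the RPKM of paired genes within a library (vertical axes, each from 0) in control and SX-682 libraries of the 3 lines; each point is 1 library. Hexim1 to Cdk9 goes from 2.22 and 2.21 to 0.810 and 0.834 in Melan-A, and Cdk12 to Cdk13 is lower with SX-682 in Melan-A and higher in B16F0.

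Without the drug, Ppp1r10 was at 14.05 ± 0.0993 RPKM in Melan-A, at 9.74 ± 0.193 in B16F10 and at 6.70 ± 0.0459 in B16F0 (SD, n = 2 in this and the next values). The order Melan-A, B16F10, B16F0 also held for Hexim1, with 40.6 ± 0.647, 30.8 ± 1.11 and 13.5 ± 0.0571 RPKM, for Larp7, with 31.8 ± 0.571, 19.9 ± 1.02 and 15.96 ± 0.562 RPKM, for Cdk12, with 5.36 ± 0.0283, 3.82 ± 0.0782 and 3.03 ± 0.181 RPKM, and for Cdk13, with 5.94 ± 0.0982, 5.34 ± 0.0383 and 4.74 ± 0.00895 RPKM. Wdr82 was highest in B16F10, at 23.4 ± 0.337 RPKM against 18.9 ± 0.455 in Melan-A and 17.1 ± 0.00594 in B16F0. Cdk9 was likewise highest in B16F10, at 23.4 ± 0.0952 RPKM against 19.2 ± 0.46 in B16F0 and 18.3 ± 0.235 in Melan-A. Ccnt1 was highest in Melan-A, at 10.3 ± 0.326 RPKM, and the B16 lines, at 7.997 ± 0.0528 and 8.04 ± 0.152, did not differ beyond their spread. Ccnt2 was highest in B16F0, at 3.78 ± 0.0355 RPKM against 2.85 ± 0.0111 in B16F10 and 2.72 ± 0.0293 in Melan-A.

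Hexim1 had a log2 difference of -1.59 (SE 0.0362) for B16F0 against Melan-A and of 1.19 (SE 0.037) for B16F10 against B16F0. Ppp1r10 differed by -1.07 (SE 0.0428) between B16F0 and Melan-A, Larp7 by -0.997 (SE 0.0433) and Cdk12 by -0.83 (SE 0.0428). At the same threshold, 7 of the 9 were lower and 1 higher in B16F0 than in Melan-A (40.6% and 35.3% of the genes tested), 6 were lower and 2 higher in B16F10 than in Melan-A (40.8% and 33.4%), and 7 were higher and 1 lower in B16F10 than in B16F0 (30.8% and 31.2%). Untreated levels were also used in the choice of the members, so nothing is read from the counts. Their medians were -0.36, -0.35 and 0.32 on the log2 scale, against -0.06, -0.10 and -0.00165 over all genes tested. Each comparison shares its untreated libraries with the others and with the SX-682 comparisons. Scaling moved the B16F10 comparison with Melan-A most: with library totals alone the median of all genes tested was -0.29, 34.3% rather than 45.0% of the called genes were higher, and the Ccnt2 value went from 0.06 to -0.12.

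**Figure D4:**
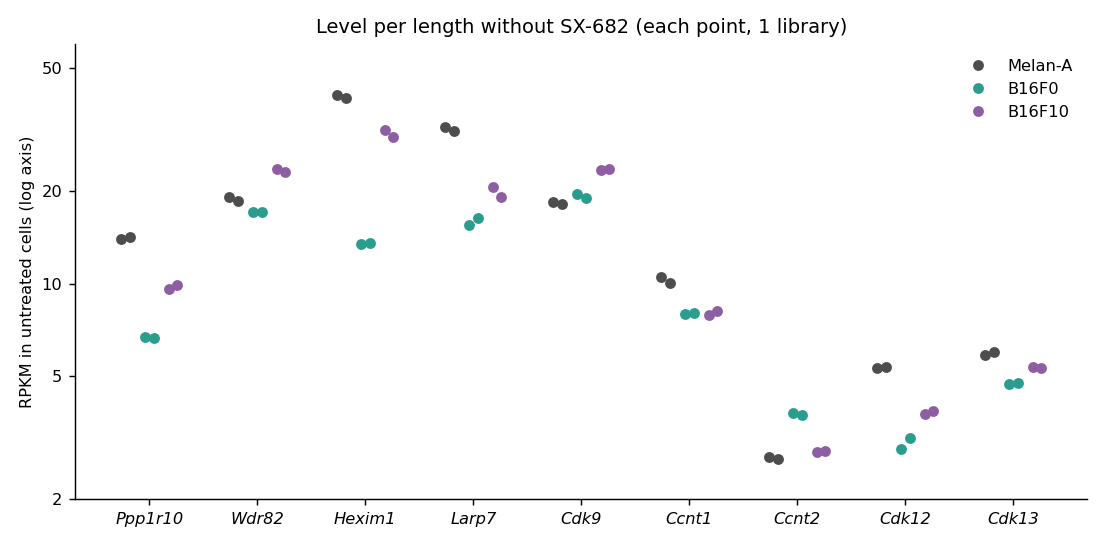
Level per length of the 9 genes in untreated cells, in RPKM on a log axis, by line; each point is 1 library. Hexim1 spans the lines most widely, from 13.5 RPKM in B16F0 to 40.6 RPKM in Melan-A, and Ccnt1 and Ccnt2 lie lower than Cdk9 in every line. By CPM, Ccnt1 was above Cdk9 in untreated Melan-A, at 94.15 against 84.42 CPM.

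Ordered by RPKM, Hexim1 led untreated Melan-A and B16F10, Cdk9 led untreated B16F0, and Ccnt2 or Cdk12 came last. In untreated Melan-A, Wdr82 and Cdk9 did not differ beyond their spread, nor did Cdk9 and Wdr82 in untreated B16F10. With SX-682, Larp7 led in Melan-A, at 21.5 ± 0.298 RPKM, and Cdk9 in B16F0 and B16F10, at 17.95 ± 0.957 and 21.5 ± 0.186 RPKM. The order between genes depended on the exon union lengths. In treated Melan-A, Larp7 was at 50.92 CPM, below Cdk9 at 90.85 CPM and Ccnt1 at 96.65 CPM. Hexim1 moved from the first place to the third in Melan-A, from the fourth to the fifth in B16F0 and from the first to the fourth in B16F10. Ppp1r10, in the middle of the order without drug, was last in both B16 lines with it, at 2.13 ± 0.0161 and 3.04 ± 0.158 RPKM.

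Around these 9, 85 further genes of the elongation machinery were examined in 13 lists, and the tests below are of these genes. The lists and the tests were chosen with earlier results of these data known. Some genes are named because their change was the largest of their list. The p-values and counts below are therefore not independent support. With SX-682, 23 rose and 34 fell in Melan-A, 27 rose and 35 fell in B16F0, and 27 rose and 36 fell in B16F10 (edgeR, adjusted over all genes tested). Over the 3 lines, between 23.4% and 25.5% of all genes tested rose and between 24.7% and 25.3% fell. The median log2 fold changes of the 85 were -0.07, -0.06 and -0.00374. In all 3 lines 15 rose and 25 fell, against 11.3% and 11.7% of the genes tested, and the change differed among the lines in 60 of the 85, against 47.4% of the genes tested. Without the drug, 29 were higher and 41 lower in B16F0 than in Melan-A (35.3% and 40.6% of the genes tested), 33 and 35 in B16F10 than in Melan-A (33.4% and 40.8%), and 41 and 25 in B16F10 than in B16F0 (30.8% and 31.2%). These splits depended on scaling, since with library totals the counts were 21 higher and 47 lower, 20 and 50, and 30 and 33 in the same order.

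Among the partners in the 7SK RNP, Hexim2, which encodes the second inhibitor of P-TEFb, fell with SX-682 in all 3 lines. It went from 24.0 to 17.8 CPM in Melan-A, from 9.17 to 6.62 CPM in B16F0 and from 11.4 to 9.07 CPM in B16F10 (means of 2 libraries). The log2 fold changes were -0.43 (SE 0.073, adjusted p = 9.86e-06), -0.48 (SE 0.093, adjusted p = 6.3e-05) and -0.33 (SE 0.087, adjusted p = 0.00192) in edgeR, and a difference among the lines did not pass the test (adjusted p = 0.595). Mepce, the capping enzyme of 7SK, had log2 fold changes of -0.08, 0.02 and 0.09, none past the threshold. Rn7sk, the 7SK RNA itself, had 100 to 388 reads a library and rose in Melan-A by 0.61 on the log2 scale (adjusted p = 0.0121), which did not hold without the second control (adjusted p = 0.134) or the second SX-682 library (adjusted p = 0.379). Its value was 0.12 in B16F0 and 0.44 in B16F10, the latter not past the threshold (adjusted p = 0.0954) unless the first SX-682 library was left out (0.74, adjusted p = 0.0116). 7SK has no poly(A) tail and many pseudogene copies, so its counts are uncertain here.

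The kinase partners moved line by line, and the change differed among the lines in all 4 of them. Mnat1, the assembly factor of the CDK7 kinase, rose in all 3 lines, by 0.36, 0.61 and 0.68. Cdk7 rose by 0.12 in Melan-A (adjusted p = 0.0262), a call lost without any 1 of the 4 Melan-A libraries (adjusted p between 0.0687 and 0.12), fell by 0.31 in B16F0 (adjusted p = 3.46e-06) and had a value of -0.06 in B16F10. Ccnh, the cyclin of CDK7, rose by 0.16 in Melan-A (adjusted p = 0.0107; 0.199 without the first control and 0.0837 without the first SX-682 library). Ccnk, the cyclin of CDK12 and CDK13, fell by 0.20 in B16F0 (adjusted p = 0.000495) and had values of -0.07 in Melan-A and 0.04 in B16F10.

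Of the partners of PNUTS, Ppp1cc, a catalytic subunit of PP1, fell in all 3 lines, by 0.50, 0.36 and 0.53 on the log2 scale (adjusted p at most 3.77e-11). Its levels were 154 against 109 CPM in Melan-A, 220.2 against 172 CPM in B16F0 and 164 against 113 CPM in B16F10. Ppp1ca, another catalytic subunit, had log2 fold changes of -0.07 (adjusted p = 0.0212; 0.103 without the second control and 0.251 without the second SX-682 library), -0.17 (adjusted p = 1.1e-06) and -0.04 (adjusted p = 0.143). Ppp1cb, which encodes the remaining subunit of the kind, rose by 0.14 in B16F0 (adjusted p = 0.000165), with values of 0.01 and 0.06 in Melan-A and B16F10. Tox4, the DNA-binding member of the complex, rose in all 3 lines, by 0.20, 0.41 and 0.33, the opposite direction to the values of Ppp1r10 and Wdr82. Pcf11, a cleavage and termination factor that binds the CTD, fell by 0.55, 1.19 and 0.88, from 52.1 to 35.6 CPM in Melan-A, from 43.7 to 19.3 CPM in B16F0 and from 55.3 to 30.0 CPM in B16F10.

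The counts by list below are for all 3 lines together, where 11.3% of all genes tested rose and 11.7% fell. In the PNUTS and termination list 2 of 8 genes rose and 3 fell. Of the 4 WDR82 partners 0 rose and 2 fell, among them Setd1b, a SET1 methyltransferase, by 0.57, 0.45 and 0.17 (adjusted p = 1.36e-08, 3.24e-06 and 0.036 in edgeR, the last lost without any of 3 B16F10 libraries, with adjusted p up to 0.412). In the pausing factors, 1 of 4 NELF genes rose and 1 fell, the latter Nelfcd by 0.31, 0.22 and 0.27, and neither of the 2 DSIF genes changed in all 3 lines. In the super elongation complex, which carries P-TEFb to genes, 3 of 9 rose and 1 fell. Ell2, an elongation factor of that complex, rose by 0.38, 0.66 and 0.97. The PAF1 complex had 0 of 6 rising and 2 falling, with Rtf1 down by 0.40, 0.48 and 0.23. Among 11 elongation factors and histone chaperones 1 rose and 2 fell. The riser, Tcea2, a TFIIS gene at 0.764 CPM in Melan-A and 0.508 CPM in B16F10 controls, rose by 0.55, 0.93 and 1.69, with the Melan-A call lost in DESeq2 (adjusted p = 0.0531) and, with a library left out, at adjusted p up to 0.344.

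Integrator, which cleaves the RNA of paused polymerase and ends its transcription, had 7 of 14 genes falling and 2 rising. Of all genes tested, 11.7% fell and 11.3% rose in all 3 lines. The falling share was the same as the 2 of 4 in the lists of WDR82 partners and of CDK12-dependent repair genes. The largest mean change in Integrator was that of Ints13, which went from 68.7 to 51.5 CPM in Melan-A, from 75.8 to 48.2 CPM in B16F0 and from 86.4 to 47.2 CPM in B16F10. The median log2 fold change of the 14 genes was -0.28, -0.13 and -0.32 in Melan-A, B16F0 and B16F10, and 0 over all genes tested in each line. Among 12 subunits of RNA polymerase II, 3 rose and 3 fell, Polr2d by 0.46, 0.54 and 0.70. Of 4 CTD phosphatases 2 rose and 1 fell, and Rpap2, which acts on the CTD early in transcription, rose by 0.53, 0.71 and 0.94. The list of 4 DNA repair genes known to depend on CDK12 had 0 rising and 2 falling, with Fanci down by 0.47, 0.63 and 0.38 in Melan-A, B16F0 and B16F10, where Cdk12 had log2 fold changes of -0.37, 0.32 and -0.12.

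**Figure D5:**
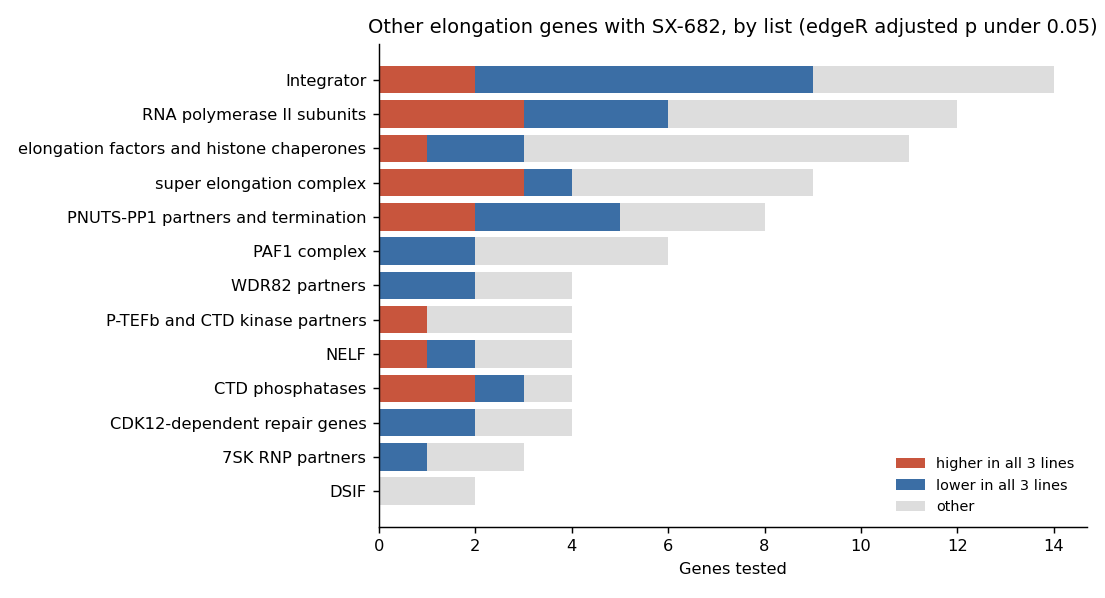
Number of genes tested in each of the 13 lists of other elongation genes (horizontal axis), split into those that rose in all 3 lines with SX-682, those that fell in all 3 and the rest, by edgeR's adjusted p under 0.05. Integrator has 7 of 14 genes falling in all 3 lines, and DSIF has none in either class. Of all genes tested, 11.7% fell and 11.3% rose in all 3 lines.

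Over the 12 libraries, the genes whose centred log2 CPM profile was closest to that of Ppp1r10 were Tubb4b, a beta-tubulin, with a root mean square difference of 0.256, Lmnb1, which encodes lamin B1, with 0.264, and Dido1 with 0.299. For Hexim1 they were Nacc2 with 0.245, Cand2 with 0.290 and Ccnd1, the gene of cyclin D1, with 0.307. Ppp1r10 and Hexim1 were at 0.331 from each other, and the other members were at 0.65 to 1.18 from either. The profiles share libraries and scaling, and the difference is a description over 12 libraries.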

How the data were processed

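The authors deposited 1 table of whole-number read counts per gene for the 12 libraries, without normalization, with Ensembl identifiers, symbols, lengths and GRCm38 coordinates. The submitters' processing notes name mm10, cutadapt, STAR and DESeq2. The counting program, its annotation and its treatment of strand are not given in the sources used here. Every column was matched to a library by its label, and 0 columns of per-sample values were left unused. Reads that the counting assigned to a wrong copy or strand would shift the levels of paralogs and overlapping genes.

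Counts were fitted in edgeR 4.0.16 (R 4.3.3) with TMM scaling, filterByExpr, all 12 libraries in 6 groups, no block, the quasi-likelihood F-test and Benjamini-Hochberg adjustment over 18338 genes at 0.05. The biological coefficient of variation was 2.78%, with 6 residual degrees of freedom. The standard error is the log2 fold change over the root of F. RPKM used the deposited length. A floor of 3 counts, 0.033 to 0.0623 CPM, covers counting error only. Scripts were tested on simulated counts.

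The members, the 13 lists, the motifs and the tests were chosen with earlier results of these data known. Named among the 85 other genes are the 7SK and kinase partners, Ppp1ca, Ppp1cb, Ppp1cc and Tox4, and in each list the gene with the largest mean change among those called alike in all 3 lines. For Ppp1r10 and Hexim1 the 3 closest profiles (log2 CPM with 0.5 added) are named. Alternatives were DESeq2 1.42.0, RLE factors, library totals, no filter, a minimum of 10 counts per library, the replicate number as a block and each library left out. 1 further gene chosen with the kinase partners is not reported here and is left out of their counts. Adgre1 of the leukocyte markers was not analysed here. Sequences are from RefSeq (GRCm38.p6) and positions from the table, equal to GENCODE M21 for the 9 genes.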

Additional observations from a re-analysis of the deposited data

Results flagged for a closer look

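For 17 of the named other elongation genes the change with SX-682 differed among the 3 lines (edgeR F-test of the difference, adjusted over all genes tested). The same test called 60 of the 85 other elongation genes and 47.4% of all genes tested. Some of the named genes were picked for a large change in these data. The distance between the highest and the lowest log2 fold change of the 3 lines was 1.15 for Tcea2 (adjusted p = 0.0182), 0.636 for Pcf11 (adjusted p = 4.48e-08), 0.583 for Ell2 (adjusted p = 0.0162), 0.459 for Ints13 (adjusted p = 1.05e-06), 0.436 for Cdk7 (adjusted p = 1.35e-05), 0.413 for Rpap2 (adjusted p = 0.00111), 0.406 for Setd1b (adjusted p = 0.00179) and 0.323 for Mnat1 (adjusted p = 9.89e-05). It was between 0.2 and 0.3 for Rtf1 (0.25, adjusted p = 0.000492), Ccnk (0.245, adjusted p = 0.00987), Fanci (0.243, adjusted p = 0.0166), Tox4 (0.205, adjusted p = 0.00135) and Ccnh (0.204, adjusted p = 0.0479). The smallest distances were those of Ppp1cc (0.179, adjusted p = 0.00228), Mepce (0.167, adjusted p = 0.0498), Ppp1ca (0.13, adjusted p = 0.00758) and Ppp1cb (0.126, adjusted p = 0.0363). Cdk7 was called higher in Melan-A and lower in B16F0, and the Melan-A call was lost without any 1 of the 4 Melan-A libraries (adjusted p between 0.0687 and 0.12).

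Of the 9 members, 3 had all treated libraries on 1 side of the controls in 1 line and on the opposite side in another. These were Cdk12, with a distance of 0.696 between B16F0 and Melan-A, Cdk9, with 0.23 between Melan-A and B16F10, and Ccnt1, with 0.209 between B16F10 and B16F0. These differences were not tested, because the members were chosen on the same values. The share of all genes tested with such a split was not computed, so nothing is read from this count.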

How the results depend on the processing

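The total of called genes, both directions summed, stayed within 1.5 times the reported total under every alternative run, for all genes tested and for the 85 other elongation genes. By direction, 20 rather than 33 of the 85 were higher in untreated B16F10 than in Melan-A with library totals. The replicate numbers were not treated as pairs of control and SX-682 libraries. The correlations of their deviations from the group means were 0.00108, 0.0222 and 0.00975 in Melan-A, B16F0 and B16F10. With 2 libraries a group, these values cannot show whether libraries shared a culture or batch. A fit with replicate number as block called 58, 62 and 66 of the 85 genes against 57, 62 and 63, and left the counts of members called with SX-682 the same. No value past the threshold changed sign.

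The members' small counts did move. With SX-682 in B16F0, 7 rather than 5 were lower with library totals and 4 in DESeq2. Leaving out some single libraries also moved the number lower with SX-682 in B16F0 and in B16F10. In Melan-A 1 rather than 2 was higher without the second control or the first SX-682 library. In B16F0 against Melan-A 2 rather than 1 were higher without the second B16F0 control, without either B16F0 SX-682 library or with no filter. With library totals 2 rather than 1 were lower in B16F10 than in B16F0, and 7 rather than 6 were lower in B16F10 than in Melan-A. Of 324 member values under alternatives other than left-out libraries, 107 moved by over 1 SD of the replicates, as did 13 of 648 with a library left out. Values near 0 changed sign in 4 cases: Cdk9 in B16F0 against Melan-A (-0.02 with library totals), Ccnt2 in B16F10 against Melan-A (-0.12), Ccnt1 between the B16 lines (-0.08 with library totals) and Cdk13 with SX-682 in Melan-A (-0.0004 with a library left out). Calls of named other genes were lost in 6 and gained in 2 cases under the alternatives, and lost in 20 and gained in 7 with a library left out. The cause was not tested. With 2 libraries a group, small changes rest on the spread shared over genes.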
